A study of Mus musculus with 16 samples.

Results

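The mouse Rosa26 locus holds 3 neighbouring genes that are described here, the noncoding gene Gt(ROSA)26Sor and its protein-coding neighbours Thumpd3 and Setd5. They were matched by gene symbol in a count table of 55487 gene identifiers, and each was present once. The locus is a well-known knock-in site and was selected on the levels of its genes across the genotypes of these same libraries. RNA sequencing was done on 16 mouse mammary organoid libraries, organoids being small tissue-like structures kept in a gel or medium, and the medium contained 50 ng/ml murine epidermal growth factor. The groups were WT organoids from normal breast (n = 3), and organoids from breast tumors labelled PIK3CA Mutation (n = 4), HER2 Mutation (n = 4) or HER2 and PIK3CA Mutation (n = 5, the double mutant). The series title names the changes as V777L in HER2, a receptor tyrosine kinase encoded by Erbb2 in the mouse, and H1047R in PIK3CA, the catalytic subunit of phosphoinositide 3-kinase. The labels used here give no strain, age, promoter, Cre driver or insertion site for either allele, and do not state whether each library came from a separate mouse. The spread between libraries may therefore be partly technical. Tissue source and genotype cannot be told apart in any comparison with WT.

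Gt(ROSA)26Sor was found in embryonic stem cells as the site of a gene trap, and makes noncoding transcripts in most mouse tissues. Because it is open and broadly transcribed, and because insertions there are tolerated, its first intron is one of the most used places to put a transgene or a conditional mutant allele in the mouse. Thumpd3 encodes a THUMP-domain methyltransferase that, with the small partner protein TRMT112, methylates guanosine in transfer RNA. Setd5 encodes a SET-domain chromatin protein that is found with the NCoR and HDAC3 corepressor complex.

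In GRCm38, Gt(ROSA)26Sor (ENSMUSG00000086429) lies on the minus strand of chromosome 6 from 113067428 to 113077333 and is annotated as an antisense gene with 4 transcripts. Thumpd3 (ENSMUSG00000030264) lies on the plus strand from 113046225 to 113068273, and its end overlaps the end of Gt(ROSA)26Sor. The exons of both genes share 145 bases, which are 8.55% of the exonic bases of Gt(ROSA)26Sor and belong to the last exon of 2 of its 4 transcripts. Setd5 (ENSMUSG00000034269) starts on the plus strand at 113077365, with 31 bases between its start and that of Gt(ROSA)26Sor, and ends at 113153435. The start sites of Gt(ROSA)26Sor and Setd5 are thus head to head, and those of Thumpd3 and Gt(ROSA)26Sor are not. How the counting treated strand is not given in the sources used here, so reads in the 145 shared bases cannot be assigned to a strand.

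**Figure D1:**
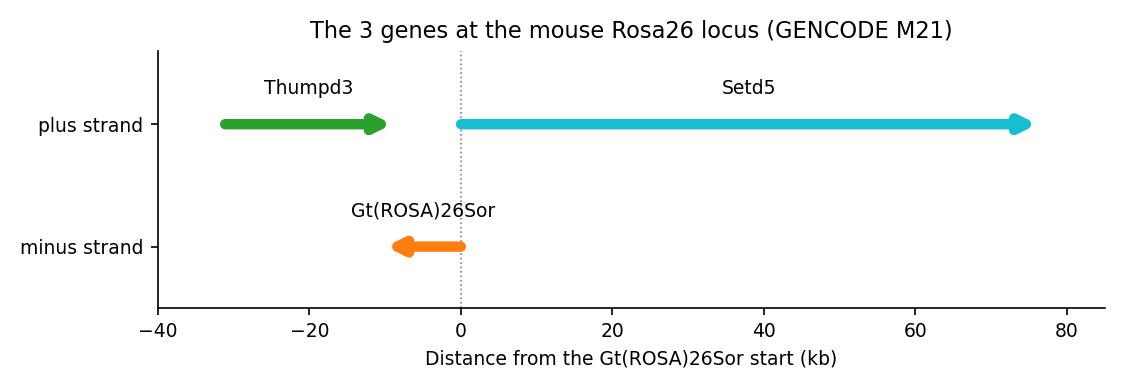
Layout of the 3 genes, drawn as arrows from start to end on their strand, against the distance in kb from the start of Gt(ROSA)26Sor (dotted line). Setd5 starts 31 bases from that line and runs the other way, and Thumpd3 overlaps the end of Gt(ROSA)26Sor.

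A pair of Gt(ROSA)26Sor stretches is shown, together a small share of its 1695 exonic bases, because one lies near the end next to Setd5 and the other is common to all its transcripts. Both lie outside the overlap with Thumpd3, and were taken from the GENCODE M21 transcripts (GRCm38, minus strand, 5′ to 3′, CG dinucleotides in capitals). Exon 1 of transcript Gt(ROSA)26Sor-201, chr6:113077068-113077210, lies near, but not at, the outermost annotated start, and has 14 CG dinucleotides in 143 bases and a GC content of 71.3%. The second is the 142-base stretch of the following exon that all 4 transcripts contain, chr6:113071294-113071435, with 1 CG dinucleotide and a GC content of 43.0%.
Gt(ROSA)26Sor exon 1: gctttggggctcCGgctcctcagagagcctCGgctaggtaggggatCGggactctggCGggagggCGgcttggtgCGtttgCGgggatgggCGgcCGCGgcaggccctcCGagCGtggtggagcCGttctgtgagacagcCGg
Gt(ROSA)26Sor shared exon stretch: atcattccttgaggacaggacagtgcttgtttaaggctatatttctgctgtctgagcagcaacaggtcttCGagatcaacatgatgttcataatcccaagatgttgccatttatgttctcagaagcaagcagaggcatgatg
The first is CG-rich, and the second has few CG dinucleotides.

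RefSeq promoter windows (GRCm38.p6, 250 bases before to 50 after a start) matched 2 of the 3 genes. That of Thumpd3, chr6:113046052-113046351 on the plus strand, is shown because it is the start of the neighbour whose mean level differed least between genotypes. Capitals mark the letters CCGGAAG, the core bound by ETS factors, found here on the opposite strand.
Thumpd3 promoter window: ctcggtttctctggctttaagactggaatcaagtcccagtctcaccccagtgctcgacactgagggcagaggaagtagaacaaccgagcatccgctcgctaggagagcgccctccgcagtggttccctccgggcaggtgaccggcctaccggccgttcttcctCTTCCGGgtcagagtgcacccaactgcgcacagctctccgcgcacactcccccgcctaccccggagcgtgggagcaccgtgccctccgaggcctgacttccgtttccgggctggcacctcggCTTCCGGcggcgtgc
This window holds 26 CG dinucleotides, against a median of 7 over all 32851 windows, and 2 matches to CCGGAAG, which 8.86% of all windows hold at least once on either strand. It holds no match on either strand to TATAAA (13.6% of all windows), CCAAT (37.4%), GGGCGG (35.7%) or the palindromic core bound by NRF1 (0.971%). The window of Setd5 in that table belongs to an internal start 27.6 kb inside the gene, not to the start beside Gt(ROSA)26Sor. It holds 1 CG dinucleotide and no match to any of the 5 motifs.

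Total counts ranged from 45545182 to 64168308 per library, and all 3 genes passed the filter on low counts, which left 24252 genes. Levels are given in CPM, read counts relative to the size of the library as scaled by edgeR's TMM factors. Erbb2, as a check on the labels, had 2696 to 4632 CPM in HER2 mutants and 1499 to 2751 in double mutants, against 145 to 171 in WT and 149 to 188 in PIK3CA mutants. The summed level of 5 epithelial markers was 1597 to 1950 CPM in WT, 2233 to 2993 in PIK3CA, 1515 to 2161 in HER2 and 2161 to 3829 in double mutants. Among them Krt5, a keratin of basal cells, had 34.1 ± 17.4 CPM in HER2 mutants (SD, n = 4), against 252 ± 109.6 in WT (SD, n = 3) and 296 ± 145 in PIK3CA mutants (SD, n = 4). Its level in double mutants was 227 ± 109.98 CPM (SD, n = 5). It was lower in HER2 mutants than in WT (-2.89, SE 0.570, edgeR adjusted p 0.00592), where Gt(ROSA)26Sor and Setd5 were higher. Of the 5 epithelial markers Krt5 alone passed there, and Krt14, also a basal keratin, did not. Markers of other cell types differed with genotype. The summed level of 5 immune markers (Ptprc, Cd68, Csf1r, Adgre1 and Lyz2) was 495 to 3005 CPM in WT, 13.9 to 36.6 in PIK3CA, 9.05 to 182 in HER2 and 12.6 to 67.5 in double mutants. The summed level of 5 fibroblast markers was 288 to 1586 CPM in WT, 65.0 to 442 in PIK3CA, 33.5 to 584 in HER2 and 25.7 to 57.8 in double mutants. That of 3 endothelial markers was at most 4.15 CPM in any library. No marker of these lists was at 0 in all libraries of a genotype. The part of cell makeup in the differences from WT below was not tested. In bulk RNA, fewer cells of a type and less RNA per cell cannot be told apart.

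Gt(ROSA)26Sor had its lowest level in PIK3CA mutants and its highest in HER2 mutants, with WT and double mutants between. Its levels were 2.36, 2.10 and 2.27 CPM in WT replicates 1 to 3 and 1.37, 0.868, 1.06 and 1.02 CPM in PIK3CA mutant replicates 1 to 4. They were 5.34, 5.36, 4.74 and 6.41 CPM in HER2 mutant replicates 1 to 4, and 2.50, 5.66, 3.67, 2.59 and 2.57 CPM in double mutant replicates 1 to 5. Each PIK3CA mutant library was below each WT library, and each HER2 mutant and double mutant library was above each WT library. Behind these levels stood 105 to 136 reads in WT, 42 to 86 in PIK3CA, 213 to 313 in HER2 and 132 to 270 in double mutants. The lowest count, 42, has an exact Poisson 95% interval of 30.3 to 56.8 and the highest, 313, one of 279 to 350. These intervals cover counting error only.

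The 3 genes were chosen with their levels in these libraries known, so their genotype differences are described by size and standard error (SE), with no p. Gt(ROSA)26Sor was 2.07-fold lower in PIK3CA mutants than in WT (log2 fold change -1.05, SE 0.284), with 1.08 ± 0.210 CPM (SD, n = 4) against 2.24 ± 0.131 (SD, n = 3). For background, 15.7% of all genes tested had every PIK3CA mutant library below every WT library. It was 2.43-fold higher in HER2 mutants than in WT (log2 fold change 1.28, SE 0.291), with 5.46 ± 0.693 CPM (SD, n = 4), where 9.81% of all genes had every HER2 mutant library above every WT library. In double mutants it was 1.51-fold higher than in WT (log2 fold change 0.60, SE 0.275), with 3.40 ± 1.36 CPM (SD, n = 5), where 9.68% of all genes had all double mutants above all WT. Between the lowest double mutant, at 2.50 CPM, and the highest WT, at 2.36 CPM, the distance was smaller than the SD within either mutant genotype that carried HER2.

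The comparisons among tumor organoids leave out the WT libraries. HER2 mutants had 5.05-fold more Gt(ROSA)26Sor RNA than PIK3CA mutants (log2 fold change 2.33, SE 0.275). No library of the 2 genotypes overlapped, as for 5.63% of all genes in this direction, and 613 of 24252 genes had a larger log2 fold change. Double mutants had 3.14-fold more than PIK3CA mutants (log2 fold change 1.65, SE 0.261), again without overlap, as for 3.42% of all genes in this direction, and 357 genes had a larger log2 fold change. Between double and HER2 mutants the groups overlapped, and the double mutant was 1.61-fold lower (log2 fold change -0.69, SE 0.246). Of the 5 immune markers, 0 passed edgeR's adjusted p of 0.05 between HER2 and PIK3CA mutants, but 4 had an unadjusted p under 0.05 and DESeq2 called 3, all higher in HER2 mutants, with a median log2 fold change of 3.29. Between double and HER2 mutants, where Gt(ROSA)26Sor was also lower, edgeR called 3 of the 5 lower (Ptprc, Adgre1 and Lyz2), with a median of -4.10. The basal marker Krt5 differed in both comparisons, being lower in HER2 than in PIK3CA mutants (-3.12, SE 0.555, edgeR adjusted p 0.00673) and higher in double than in HER2 mutants (2.73, SE 0.533, edgeR adjusted p 0.0152). Of the 5 epithelial markers no other passed between HER2 and PIK3CA mutants. Krt8 also passed as higher in double than in HER2 mutants (0.96, SE 0.244, edgeR adjusted p 0.0493). Krt14, also a basal keratin, passed in neither comparison. Between double and PIK3CA mutants, where Gt(ROSA)26Sor was higher, 0 of 5 immune and 0 of 5 epithelial markers passed by edgeR or DESeq2. The immune median there was -0.52. Of 5 fibroblast markers, edgeR called 0 among tumor organoids. Their median was -2.40 in double against PIK3CA mutants, -2.89 in double against HER2 mutants and 0.77 in HER2 against PIK3CA mutants. DESeq2 called 1, 2 and 0 of them lower, in that order. The part of these cell types in the differences at the locus was not tested. Added together, the 2 single-mutant differences fell short of the double mutant by 0.37 on the log2 scale (SE 0.377, 95% interval -0.37 to 1.11).

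**Figure D2:**
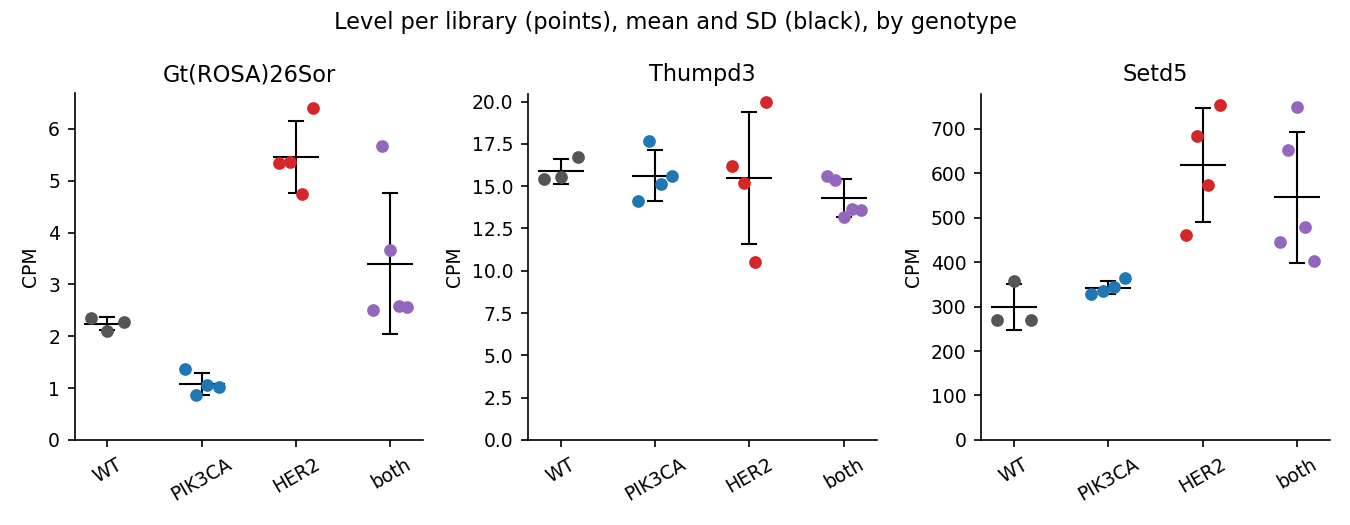
Level in CPM of each gene in every library (colored points), with the mean (long black bar) and SD (error bar) of each genotype, "both" being the double mutant. Gt(ROSA)26Sor lies at 0.868 to 1.37 CPM in PIK3CA mutants and 4.74 to 6.41 CPM in HER2 mutants, Setd5 is higher in both genotypes with the HER2 mutation, and the Thumpd3 genotypes overlap.

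Setd5, the head-to-head neighbour, was higher in both genotypes that carry the HER2 mutation and close to WT in PIK3CA mutants. Its levels were 269.9, 358 and 269.6 CPM in WT replicates 1 to 3 and 329, 335, 344 and 364 CPM in PIK3CA mutant replicates 1 to 4. HER2 mutant replicates 1 to 4 had 461, 683, 575 and 754 CPM, and double mutant replicates 1 to 5 had 445, 652, 749.7, 479 and 403 CPM. All 9 libraries with the HER2 mutation were above all 7 without it, as for 0.429% of all genes, and WT and PIK3CA mutants overlapped. Taken singly, every HER2 mutant was above every WT library for 9.81% of all genes, and every double mutant for 9.68%. Against PIK3CA mutants the shares were 5.63% for HER2 mutants and 3.42% for double mutants. With 15440 to 38194 reads per library, counting error is small beside these differences.

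Setd5 was 2.07-fold higher in HER2 mutants than in WT (log2 fold change 1.05, SE 0.220), with 618 ± 128 CPM (SD, n = 4) against 299 ± 50.8 (SD, n = 3). It was 1.83-fold higher in double mutants than in WT (log2 fold change 0.87, SE 0.211), with 546 ± 148 CPM (SD, n = 5). Against PIK3CA mutants, which had 343 ± 15.5 CPM (SD, n = 4), it was 1.80-fold higher in HER2 mutants (log2 fold change 0.85, SE 0.199) and 1.59-fold higher in double mutants (log2 fold change 0.67, SE 0.190). The difference of PIK3CA mutants from WT, 0.20 (SE 0.215), was under its SE with all libraries, and so was that between double and HER2 mutants, -0.18 (SE 0.188). Single libraries moved both: the first was 0.35 without WT replicate 2 (SE 0.242) and 0.13 without WT replicate 1 or 3, and the second was -0.32 without double mutant replicate 3 (SE 0.176), -0.30 without HER2 mutant replicate 1 (SE 0.187) and -0.07 without HER2 mutant replicate 4. Setd5 was thus like Gt(ROSA)26Sor in being above WT in both genotypes with the HER2 mutation. It was unlike it in PIK3CA mutants, where Gt(ROSA)26Sor was lower than in WT. Between double and HER2 mutants Gt(ROSA)26Sor differed by -0.69 (SE 0.246), a larger difference than that of Setd5.

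Thumpd3, the neighbour that overlaps the other end of Gt(ROSA)26Sor, had overlapping levels in all genotypes. It had 15.4, 15.5 and 16.7 CPM in WT replicates 1 to 3 and 14.1, 17.7, 15.1 and 15.6 CPM in PIK3CA mutant replicates 1 to 4. HER2 mutant replicates 1 to 4 had 16.2, 15.2, 10.5 and 19.999 CPM, and double mutant replicates 1 to 5 had 15.6, 15.4, 13.2, 13.7 and 13.6 CPM. The HER2 mutants spanned the whole range, and libraries overlapped in all 6 comparisons. The WT mean was 15.9 ± 0.735 CPM (SD, n = 3), that of PIK3CA mutants 15.6 ± 1.49 (SD, n = 4) and that of HER2 mutants 15.5 ± 3.90 (SD, n = 4). Double mutants had a mean of 14.3 ± 1.13 CPM (SD, n = 5). The mean of double mutants was below that of WT by more than the SD of either group. Compared with WT, its log2 fold change was -0.02 for the PIK3CA mutation (95% interval -0.37 to 0.33), -0.04 for the HER2 mutation (-0.39 to 0.31) and -0.15 for both (-0.49 to 0.18). Each interval includes 0, and differences of any size inside it are not excluded. The value for the HER2 mutation changed sign with a single library, from -0.18 without HER2 mutant replicate 4 to 0.11 without replicate 3.

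**Figure D3:**
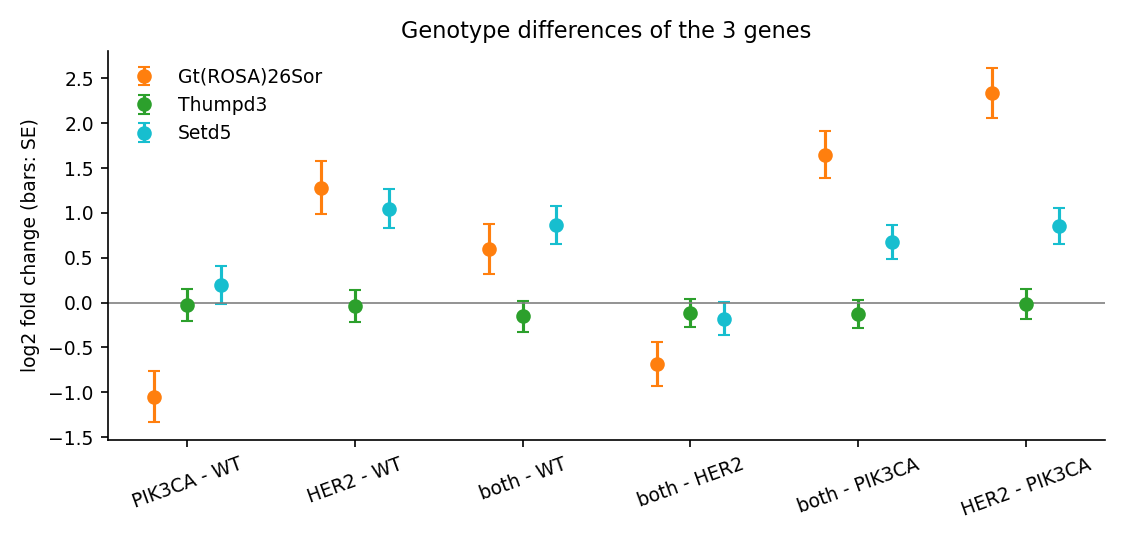
Log2 fold change (points) with its SE (bars) of the 3 genes in the 6 genotype comparisons, from an edgeR fit of all 16 libraries. Gt(ROSA)26Sor runs from -1.05 (PIK3CA mutant against WT) to 2.33 (HER2 against PIK3CA mutant), while the Thumpd3 points lie between -0.15 and -0.01.

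Ratios of reads within a library do not depend on how libraries are scaled. For each 100 Thumpd3 reads there were 13.5 to 15.3 Gt(ROSA)26Sor reads in WT, 4.91 to 9.70 in PIK3CA mutants, 32.0 to 45.0 in HER2 mutants and 16.005 to 36.8 in double mutants. The order of the genotypes was that of the CPM values, and double mutants again overlapped HER2 mutants alone. For each 100 Setd5 reads there were 0.587 to 0.874 Gt(ROSA)26Sor reads in WT, 0.784 to 1.16 in HER2 mutants and 0.490 to 0.868 in double mutants, which overlapped one another. PIK3CA mutants had 0.259 to 0.416 Gt(ROSA)26Sor reads per 100 Setd5 reads, below every library of the other genotypes. For each 100 Thumpd3 reads there were 1611 to 2304 Setd5 reads in WT and 1894 to 2336 in PIK3CA mutants, against 2843 to 5458 in HER2 and 2852 to 5692 in double mutants. Relative to Setd5, Gt(ROSA)26Sor thus stood below the other genotypes in PIK3CA mutants. Relative to Thumpd3 no mutant genotype overlapped WT, but double mutant replicate 1 (16.005) was close to WT replicate 1 (15.3). These libraries had 141 and 135 Gt(ROSA)26Sor reads, with Poisson 95% intervals of 119 to 166 and 113 to 160 that overlap. How often ratios of other genes do not overlap was not counted.

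Levels of the 3 genes can be compared with each other only per length, here CPM per kb of annotated exon. This length joins the exons of all annotated transcripts, 1695 bases for Gt(ROSA)26Sor and 6554 for Thumpd3. It may differ from that of the transcripts made in these organoids. On that scale WT organoids had 16.3 ± 2.77 (SD, n = 3) for Setd5, 2.42 ± 0.112 for Thumpd3 and 1.32 ± 0.0774 for Gt(ROSA)26Sor. In PIK3CA mutants Gt(ROSA)26Sor had 0.637 ± 0.124 per kb (SD, n = 4) and Thumpd3 2.38 ± 0.228. In HER2 mutants Gt(ROSA)26Sor had 3.22 ± 0.409 per kb (SD, n = 4) and Thumpd3 2.36 ± 0.595, so the mean order of these genes was turned on this scale. In reads, Thumpd3 was above Gt(ROSA)26Sor in every library. In double mutants, 2.004 ± 0.801 per kb for Gt(ROSA)26Sor and 2.18 ± 0.172 for Thumpd3 (SD, n = 5) differed by less than the spread. Setd5 was the most abundant of the 3 in each genotype, with 33.7 ± 7.004 per kb in HER2 mutants.

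Double mutant replicates 2 and 3 stood apart from the other double mutants. They had 5.66 and 3.67 CPM of Gt(ROSA)26Sor against 2.50 to 2.59 in replicates 1, 4 and 5, and 652 and 749.7 CPM of Setd5 against 403 to 479. The same libraries had 2751 and 2705 CPM of Erbb2 against 1499 to 1649, and a summed immune marker level of 67.5 and 55.5 CPM against 12.6 to 15.98. In HER2 mutant replicates 1 to 4, Gt(ROSA)26Sor had 5.34, 5.36, 4.74 and 6.41 CPM, and Erbb2 3385, 2696, 4632 and 3686 CPM. Their summed immune marker levels were 182, 91.8, 34.7 and 9.05 CPM, so neither had the order of Gt(ROSA)26Sor there. The part of Erbb2 and immune cells in the levels at the locus was not tested. Without double mutant replicates 2 and 3, the log2 fold change of Gt(ROSA)26Sor was 0.19 against WT (SE 0.206), 1.24 against PIK3CA mutants (SE 0.194) and -1.10 against HER2 mutants (SE 0.197). Without replicate 2 alone, that against WT was 0.34. For Setd5 the values without both were 0.57 against WT (SE 0.175), 0.37 against PIK3CA mutants (SE 0.162) and -0.48 against HER2 mutants (SE 0.165), the last being nearer to 0 with all libraries (-0.18). The higher level of Gt(ROSA)26Sor in double mutants than in WT therefore rested largely on 2 of 5 libraries, and its higher level than in PIK3CA mutants did not.

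**Figure D4:**
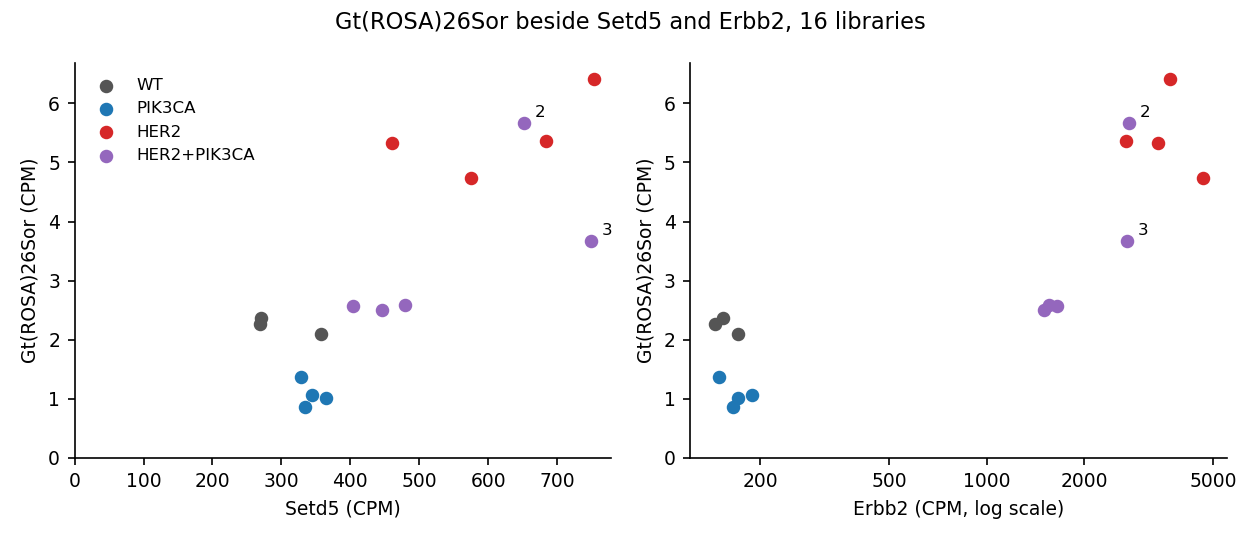
Gt(ROSA)26Sor (CPM) against Setd5 (CPM, left) and Erbb2 (CPM, log scale, right) in 16 libraries colored by genotype, with double mutant replicates 2 and 3 numbered. Replicate 2 lies at 5.66 CPM, among the HER2 mutants (4.74 to 6.41), and double mutants 1, 4 and 5 lie at 2.50 to 2.59 CPM.

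The genes most like Gt(ROSA)26Sor were sought among 11691 genes by the Pearson r of log2 CPM over the 16 libraries. The 5 highest were Stx1a, a syntaxin of vesicle fusion (r = 0.862), Capn12, a calpain protease (0.858), Erbb2 itself (0.855), Odc1, the first enzyme of polyamine synthesis (0.854), and Doc2g (0.853). Setd5 had r = 0.755, with 42 genes above it, and Thumpd3 had -0.09. Pik3ca had r = -0.45. The libraries fall into 4 genotypes, so these values include differences between genotypes. Over deviations from the genotype means, the highest were Lcor (r = 0.789), Mynn (0.779), Zfp367 (0.777), Sacm1l (0.775) and Btbd10 (0.772), none of them among the first 5. There Setd5 had r = 0.556 with 262 genes above it, and Erbb2 had 0.546 with 308 above it.

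Other genes with the order seen for Gt(ROSA)26Sor were counted as a description, since the order was taken from its own values. All HER2 and double mutant libraries above all WT, with all PIK3CA mutant libraries below all WT, was found in 6 of 24252 genes, 0.0247%, and the opposite order in 4. Besides Gt(ROSA)26Sor these were Ccl25, Cops7b, Foxred1, Gsdma2 and Trmt61a, a list named after its values were seen. Trmt61a, a transfer RNA methyltransferase, had means of 5.17 CPM in PIK3CA mutants, 6.08 in WT and 7.42 in HER2 mutants, a smaller span than that of Gt(ROSA)26Sor. Gsdma2, a gasdermin gene, was near 0, with 0 CPM in PIK3CA mutants and 0.374 in HER2 mutants. The order of Setd5, all libraries with the HER2 mutation above all others, was found in 104 genes, 0.429%.

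Gt(ROSA)26Sor and Setd5 were also set beside genes of like annotation. Of 359 other antisense genes within 1 log2 CPM of the mean of Gt(ROSA)26Sor, 0 had a larger log2 fold change between HER2 and PIK3CA mutants, where their median was 0.22 and that of all genes 0.07. In PIK3CA mutants against WT, 4 of the 359 had a lower log2 fold change than Gt(ROSA)26Sor. A higher one was found for 19 in HER2 mutants and for 72 in double mutants against WT. Of all 1583 other antisense genes, at any level, 30 had a larger one between HER2 and PIK3CA mutants. Setd5 has 18347 exonic bases. Of 66 other genes with at least 15000 exonic bases within 1 log2 CPM of it, 1 had a larger log2 fold change in HER2 mutants against WT, 1 in double mutants against WT and 0 in double against PIK3CA mutants. The medians of these 66 genes were 0.06, 0.04 and -0.04. Of all 402 other genes of at least that length, at any level, 30, 24 and 19 had a larger one in these comparisons. As both genes were chosen with their levels known, these ranks are a description only.

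The genes around the locus were tested to see how far such differences reached. Within 500 kb of the start of Gt(ROSA)26Sor lay 38 other annotated genes, of which 28 could be tested with edgeR's quasi-likelihood test, p being adjusted over all 24252 genes. In HER2 mutants against WT, 3 of 28 passed as higher and 1 as lower, where 4.75% of all genes were called higher and 5.63% lower. The higher genes were Ttll3, a tubulin tyrosine ligase family member (log2 fold change 1.45, SE 0.363, edgeR adjusted p 0.0204), Rad18, a ubiquitin ligase of DNA damage tolerance (1.16, SE 0.286, edgeR adjusted p 0.0187), and Creld1 (0.70, SE 0.191, edgeR adjusted p 0.0304). The lower gene was Il17re, an interleukin 17 receptor subunit (-1.15, SE 0.310, edgeR adjusted p 0.0291). Rad18, Creld1 and, below, Srgap3 were named after their values were seen. Without WT replicate 1, or without WT replicate 3, 0 of the 4 passed. Without HER2 mutant replicate 3 Il17re did not pass.

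In double mutants against WT, 2 of 28 passed as higher and 2 as lower, where 5.03% of all genes were called higher and 6.72% lower. These were Ttll3 (1.17, SE 0.348, edgeR adjusted p 0.039), Rad18 (0.95, SE 0.275, edgeR adjusted p 0.0351), Il17re (-1.23, SE 0.292, edgeR adjusted p 0.0123) and Srgap3 (-0.59, SE 0.160, edgeR adjusted p 0.0243). Without any single WT replicate, or without double mutant replicate 2 or 3, 0 genes passed as higher. Of the lower genes, 0 passed without WT replicate 1 or 3, and 1 without WT replicate 2 or double mutant replicate 4.

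In PIK3CA mutants against WT 0 of 28 window genes passed by edgeR, and 0 by DESeq2. At an unadjusted p under 0.05 there were 1 higher and 3 lower, for which no share of all genes was counted. At edgeR's adjusted p under 0.05, 1.49% of all genes were called higher and 3.03% lower. Among tumor organoids, 0 of 28 passed by edgeR in each of the 3 comparisons, and over the 3 together DESeq2 called 1 higher and 2 lower and an unadjusted edgeR p was under 0.05 for 7 higher and 9 lower. At edgeR's adjusted p under 0.05, the background among all genes was 1.03% higher and 1.47% lower in double against HER2 mutants. It was 0.309% and 0.363% in double against PIK3CA mutants, and 2.21% and 2.2% in HER2 against PIK3CA mutants.

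Of the nearest tested genes beyond the 3 at the locus, Srgap3 alone passed the test in any comparison. On the Thumpd3 side these were Gm43868 (31.2 kb away), Gm6134 (101 kb) and Srgap3 (130.1 kb), and on the Setd5 side Lhfpl4 (118 kb), Mtmr14 (161 kb) and Gm16161 (199.6 kb). Mtmr14, a phosphoinositide phosphatase, had 19.2 ± 1.02 CPM in WT (SD, n = 3) and 25.3 ± 4.30 in HER2 mutants (SD, n = 4), with a log2 fold change of 0.39 (SE 0.145, edgeR adjusted p 0.0978). Lhfpl4 had 0.344 ± 0.0637 CPM in WT (SD, n = 3) and 1.504 ± 0.901 in HER2 mutants (SD, n = 4), with a log2 fold change of 2.12 (SE 0.881, edgeR adjusted p 0.141). Gm43868, whose annotated start is beside that of Thumpd3, had 0.469 ± 0.165 CPM in WT (SD, n = 3) and 0.434 ± 0.224 in PIK3CA mutants (SD, n = 4).

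**Figure D5:**
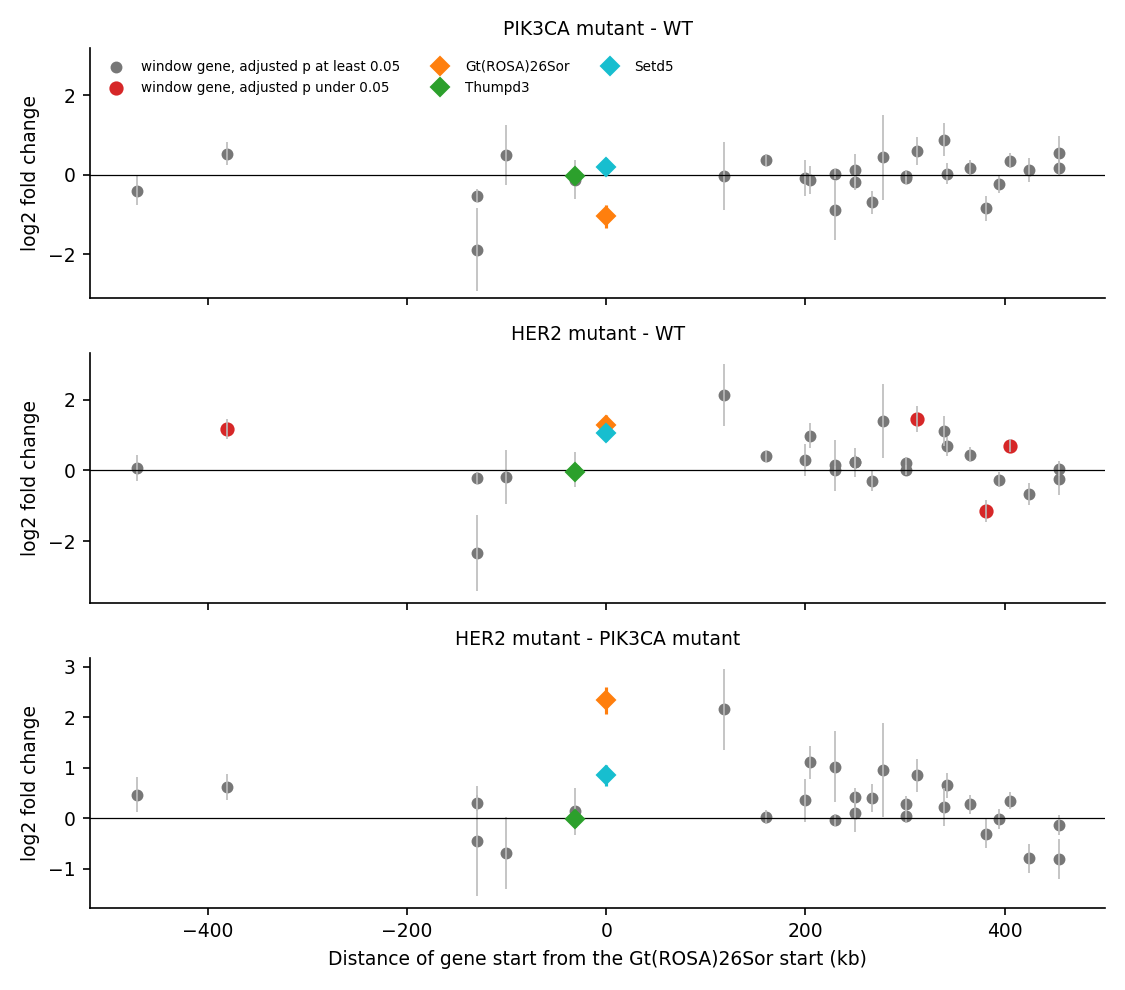
Log2 fold change (points) and SE (bars) of the 28 tested genes within 500 kb, by distance in kb of their start from that of Gt(ROSA)26Sor, with the 3 genes of the locus as diamonds. Red points passed an edgeR adjusted p of 0.05, which 4 genes did in HER2 mutants against WT and 0 in the other 2 comparisons shown.

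Genes related to Thumpd3 and Setd5 by function were read next. A list of 9 genes held those for THUMP-domain proteins, TRMT112 and its partners, and also Nat10. Of these 9, 0 passed edgeR's adjusted p of 0.05 in any of the 6 comparisons. DESeq2 called 1 higher and 1 lower over the 54 pairs of gene and comparison. An unadjusted edgeR p was under 0.05 for 3 higher and 5 lower pairs. With the shares of all genes called by edgeR given above, at most 6.72% in one direction, 0 edgeR calls among 9 genes is near the background. All 9 were nonetheless lower in PIK3CA mutants than in WT, by log2 fold changes from -0.78 to -0.06. The medians of the 9 against WT were -0.24 in PIK3CA, -0.23 in HER2 and -0.18 in double mutants. Those of all genes were -0.03, 0.03 and 0.01. Trmt112, the partner of THUMPD3, differed by -0.23 (log2) between HER2 mutants and WT (SE 0.159, edgeR adjusted p 0.382).

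Of 19 genes for SET-domain proteins and the NCoR and HDAC3 complex, 0 passed as higher in any comparison by edgeR, where 7 of 114 pairs had an unadjusted p under 0.05 in that direction and DESeq2 called 2. Of all genes, edgeR called 4.75% higher in HER2 and 5.03% in double mutants against WT at an adjusted p under 0.05, so 0 of 19 is near the background. The lower calls were 1 of 19 in HER2 and 2 of 19 in double mutants against WT, where 5.63% and 6.72% of all genes were called lower. Kmt2e, a SET-domain relative of Setd5, fell by 0.57 on the log2 scale in HER2 mutants against WT (SE 0.132, edgeR adjusted p 0.0143), from 402 ± 18.3 CPM (SD, n = 3) to 271 ± 39.1 (SD, n = 4). With both mutations it fell by 0.70 from its WT level (SE 0.125, edgeR adjusted p 0.00204). The call in HER2 mutants was lost without WT replicate 1, without WT replicate 3 and in a fit of only those 2 genotypes. Gps2, a subunit of the NCoR complex named after its values were seen, also passed as lower in double mutants (-0.52, SE 0.145, edgeR adjusted p 0.0292), a call lost without WT replicate 1 or 3 and without double mutant replicate 2 or 3. Hdac3 (0.10, SE 0.141) and Ncor1 (0.11, SE 0.168) did not pass in HER2 mutants against WT, with edgeR adjusted p of 0.703 and 0.716. The median of the 19 genes was 0.02 in HER2 mutants against WT, beside 0.03 for all genes.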

How the data were processed

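Mouse gene counts deposited by the authors are whole reads for each Ensembl identifier. A normalized signal table, also deposited, is one in which each value is the count divided by a single factor per library, as found from the values. The normalized table was not used for tests. Per the submitters' processing notes, STAR 2.0.4b, Subread featureCounts 1.4.5, DESeq2 1.33.5 and build mm10 were used, and the counting's annotation and strand setting are not given in the sources used here. Of 55774 rows, 287 repeated an identifier with identical values and were dropped.

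Counts were fitted with edgeR 4.0.16 (filterByExpr, TMM, quasi-likelihood test, two-sided, genotype as the only factor) over all 16 libraries in R 4.3.3, with Benjamini-Hochberg adjustment over 24252 genes and calls at an adjusted p under 0.05. SE is the absolute log2 fold change over the square root of F, and a 95% interval is 1.96 SE each way. Shares of all genes called higher or lower are at edgeR's adjusted p under 0.05. None was counted at an unadjusted p or for DESeq2. Log2 CPM used a prior count of 2. The script was tested on simulated counts. Positions, lengths and window genes come from GENCODE M21. Alternatives were other scalings, no filter, DESeq2 1.42.0, pairwise fits, a replicate block and leaving out libraries. The 3 genes and all lists were chosen with earlier results of these data known. Named genes were the 3 nearest tested genes on each side, the called gene with the largest change in each direction per list and comparison, the 5 most alike genes, and the mutated genes.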

Additional observations from a re-analysis of the deposited data

How the results depend on the processing

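The log2 fold changes of the 3 locus genes stayed within the SD between replicates of their main values under other scalings, no filter, DESeq2, pairwise fits, the replicate block and each left-out library. Leaving out double mutants 2 and 3 together, a choice made after seeing the data, moved Gt(ROSA)26Sor in double against HER2 mutants from -0.69 to -1.10 and Setd5 in double against PIK3CA mutants from 0.67 to 0.37. It also gave 0 window genes higher than WT and 3 lower than HER2 mutants. Counts of window genes were less stable. A fit of only 2 genotypes gave 2 higher and 3 lower in PIK3CA mutants against WT (0 and 0 in the main fit), 1 higher in HER2 mutants (3), 1 higher in double mutants (2) and 1 higher in HER2 against PIK3CA mutants (0). DESeq2 gave 5 higher in HER2 mutants against WT, 2 lower in double against HER2 mutants and 1 higher in HER2 against PIK3CA mutants. Leaving out each replicate in turn gave 0 to 3 higher and 0 to 1 lower in HER2 mutants against WT, 0 to 2 higher and 0 to 3 lower in double mutants against WT, 0 to 1 lower in double against HER2 mutants and 0 to 1 higher in HER2 against PIK3CA mutants. The pairwise and left-out fits use fewer libraries; for the others the cause was not tested.

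With the replicate number as a block, 1 window gene was higher in HER2 mutants and 0 in double mutants against WT. The labels do not say that a number links libraries. Same-numbered libraries deviated together most in double and HER2 mutants (mean correlation 0.157, lowest 0.0711), where 2 of 4 correlated best with their own number.

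The 42 to 313 reads of Gt(ROSA)26Sor per library limit its precision, and differences between its 4 transcripts were not analysed here.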

Other observations

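Other places often used for insertions in the mouse genome were read beside the Rosa26 locus. Of Hprt, Actb, Col1a1, Eif4enif1 and Drg1, 1 of 30 pairs of gene and comparison passed edgeR's adjusted p of 0.05, as lower in double mutants against WT, where 6.72% of all genes were called lower. Col1a1, a fibroblast collagen that is also in the fibroblast marker list, fell by 5.32 on the log2 scale from WT to double mutants (SE 1.07, edgeR adjusted p 0.00434), from 639 ± 451 CPM (SD, n = 3) to 16.03 ± 3.90 (SD, n = 5). Eif4enif1, beside the Hipp11 insertion site, differed from WT by -0.01 (log2, SE 0.105) with the PIK3CA mutation, by -0.04 (SE 0.105) with the HER2 mutation and by -0.03 (SE 0.100) with both.

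Of 14 commonly used reference genes, 6 pairs of gene and comparison passed as higher and 3 as lower among 84, all in comparisons with WT. These were 1 higher and 1 lower of 14 in PIK3CA mutants (all genes 1.49% and 3.03%), 1 and 1 in HER2 mutants (4.75% and 5.63%) and 4 and 1 in double mutants (5.03% and 6.72%). In fits without a replicate, double mutants had 0 to 4 higher and 0 to 1 lower. HER2 mutants had 0 to 1 higher and 0 to 2 lower, and PIK3CA mutants 0 to 1 higher and 1 lower. Pgk1, a glycolytic enzyme, had 143 ± 100.2 CPM in WT (SD, n = 3) and 687 ± 174 in PIK3CA mutants (SD, n = 4), and so differed by 2.26 on the log2 scale (SE 0.597, edgeR adjusted p 0.0412), lost in 6 of 7 fits without a replicate. Gusb, a lysosomal enzyme, fell by 1.80 in PIK3CA mutants against WT (SE 0.297, edgeR adjusted p 0.00231), in the comparison where immune markers also fell, and the part of other cells was not tested. Among tumor organoids 0 of 42 pairs passed by edgeR and 0 by DESeq2, and 3 had an unadjusted p under 0.05, all higher.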
